A study of Homo sapiens with 6 samples.

Results

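The kinetochore, spindle checkpoint and anaphase-promoting complex (APC/C) genes described here are 60 genes, listed by name for their part in chromosome segregation, out of 62710 genes in the table. The 60 were matched by symbol to the Ensembl identifiers of the table, and all 60 had a mean above the minimum of 10 used for testing. They were compared between the parental H526 line, from a small cell lung cancer, and its onvansertib-resistant derivative, made by culture in onvansertib raised from 10 to 75 nM over a year. Onvansertib inhibits polo-like kinase 1 (PLK1), a mitotic kinase. RNA of each line was sequenced in 3 libraries, numbered 1 to 3 for parental and 7 to 9 for resistant cells, from RNA harvested at 3 separate times. The resistant cells are 1 selected line, and whether onvansertib was in the medium at harvest is not given in the sources used here. The p-values therefore measure the spread between harvests of these lines, which may be technical.

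The kinetochore is the protein structure built on each centromere that holds the microtubules of the spindle. The spindle checkpoint signals from kinetochores that lack microtubules and holds back the APC/C, a large ubiquitin ligase. Once every chromosome is attached, the APC/C with its coactivator CDC20 marks securin and cyclin B for destruction, separase is freed, and the sister chromatids part. PLK1, the target of onvansertib, works at several of these steps, at the kinetochore and on an inhibitor of the APC/C.

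Values are gene counts normalized by the authors with DESeq2, and are not per length unless said. The depth implied by the value of 1 read was 25614900 to 28477736 reads in parental and 22306620 to 23344151 in resistant libraries. Every resistant library was thus shallower than every parental one, and the part of depth in the results was not tested. Log2 fold changes are resistant over parental on the log2(value + 1) scale, from limma fitted on all 16347 genes with a mean of at least 10, and a gene is called differentially expressed at a Benjamini-Hochberg adjusted p under 0.05. The H526 label was checked with POU2F3, which defines the tuft-like subtype of the line and lay between 24511 and 27873 in every library. Of the other 5 markers fixed for the line, ASCL2, AVIL, KIT and EPCAM were lower in resistant cells (log2 fold changes -0.47, -0.80, -0.61 and -0.23) and SOX9 was higher (0.34). The lowest value of the 5 in any library was 5273, for EPCAM. Of 7 genes of blood, stromal and endothelial cells, PTPRC, CD3E, DCN and PECAM1 were under 3 reads in every library, and the summed value of the 7 was 370 to 516 in parental and 818 to 1034 in resistant libraries, carried by COL1A1, COL1A2 and VWF. Their part in the results was not tested. In bulk RNA, fewer cells in mitosis and less RNA per cell cannot be told apart.

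The promoters of 4 members are shown first, because many genes of this group are switched on together in G2 and mitosis through a short element named the cell cycle homology region (CHR), often beside a CCAAT box. The letters TTTGAA or TTTAAA (CHR) and CCAAT were searched on both strands of the RefSeq promoters of GRCh38.p14, from 250 bases before to 50 after the start, and the 150 bases before the start are printed 5′ to 3′ with matches in capitals. ATTGG is CCAAT on the other strand, and matches may overlap by some letters. CDC20 and PTTG1 are members that were not differentially expressed, and ESPL1 and UBE2S are members that were lower in resistant cells. The stretches lie at chr1:43358831-43358980 for CDC20, chr5:160421705-160421854 for PTTG1 and chr12:53268149-53268298 for ESPL1, all on the plus strand, and at chr19:55407789-55407938 on the minus strand for UBE2S.
CDC20: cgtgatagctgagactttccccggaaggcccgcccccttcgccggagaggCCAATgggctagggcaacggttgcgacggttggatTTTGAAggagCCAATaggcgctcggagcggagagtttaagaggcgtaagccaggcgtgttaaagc
PTTG1: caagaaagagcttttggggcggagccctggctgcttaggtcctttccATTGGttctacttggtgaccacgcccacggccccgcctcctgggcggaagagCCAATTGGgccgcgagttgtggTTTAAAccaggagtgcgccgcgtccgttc
ESPL1: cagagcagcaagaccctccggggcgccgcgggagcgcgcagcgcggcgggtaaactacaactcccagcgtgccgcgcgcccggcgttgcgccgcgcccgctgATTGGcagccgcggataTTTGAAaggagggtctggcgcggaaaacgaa
UBE2S: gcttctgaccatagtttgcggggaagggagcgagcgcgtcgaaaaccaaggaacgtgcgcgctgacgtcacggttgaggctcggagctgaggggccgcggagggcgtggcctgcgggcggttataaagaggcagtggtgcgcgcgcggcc

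CDC20, PTTG1 and ESPL1 held both kinds of letters in these windows, and UBE2S held neither in the printed stretch. Promoters were in the table for 51 of the 60 members. The CHR letters were found in 24 of the 51 (47.1%), against 15.3% of 11644 promoters of genes tested and 24.3% of all 27305 promoters. A match anywhere in the window was counted, also after the start, and whether a match works as a CHR was not tested. CCAAT was found in 28 of the 51 (54.9%), against 36.6% of the promoters of genes tested and 35.7% of all promoters. Both were found in 14 (27.5%), against 6.29% of the promoters of genes tested and 9.49% of all promoters. The CHR letters were in 5 of 10 promoters of members lower in resistant cells, in 3 of 6 of members that were higher and in 16 of 35 of the others.

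Between parental and resistant cells, 19 of the 60 genes (31.7%) were differentially expressed, against a background of 37.7% of all genes tested. There were 6 higher genes, with 17.8% of all genes tested higher, and 13 lower genes, with 19.8% of all genes tested lower. The libraries of the groups did not overlap for 27 of the 60, against 49.9% of all genes tested, and for these 27 the exact two-sided permutation test reached its smallest p, 0.10. The share of differentially expressed members was below the background and is not a result about the group as a whole. The median log2 fold change was -0.05 over the members and 0.00 over all genes tested (-0.000858), and the median absolute log2 fold change was 0.18 over the members and 0.30 over all genes tested. By role, the checkpoint and the SKA complex had no differentially expressed gene, and the lower genes lay in the inner kinetochore, the APC/C with its enzymes and regulators, the passenger complex and separase. Roles hold 2 to 13 genes, and differences between them were not tested. The plot of log2 fold changes by role shows all 60.

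**Figure D1:**
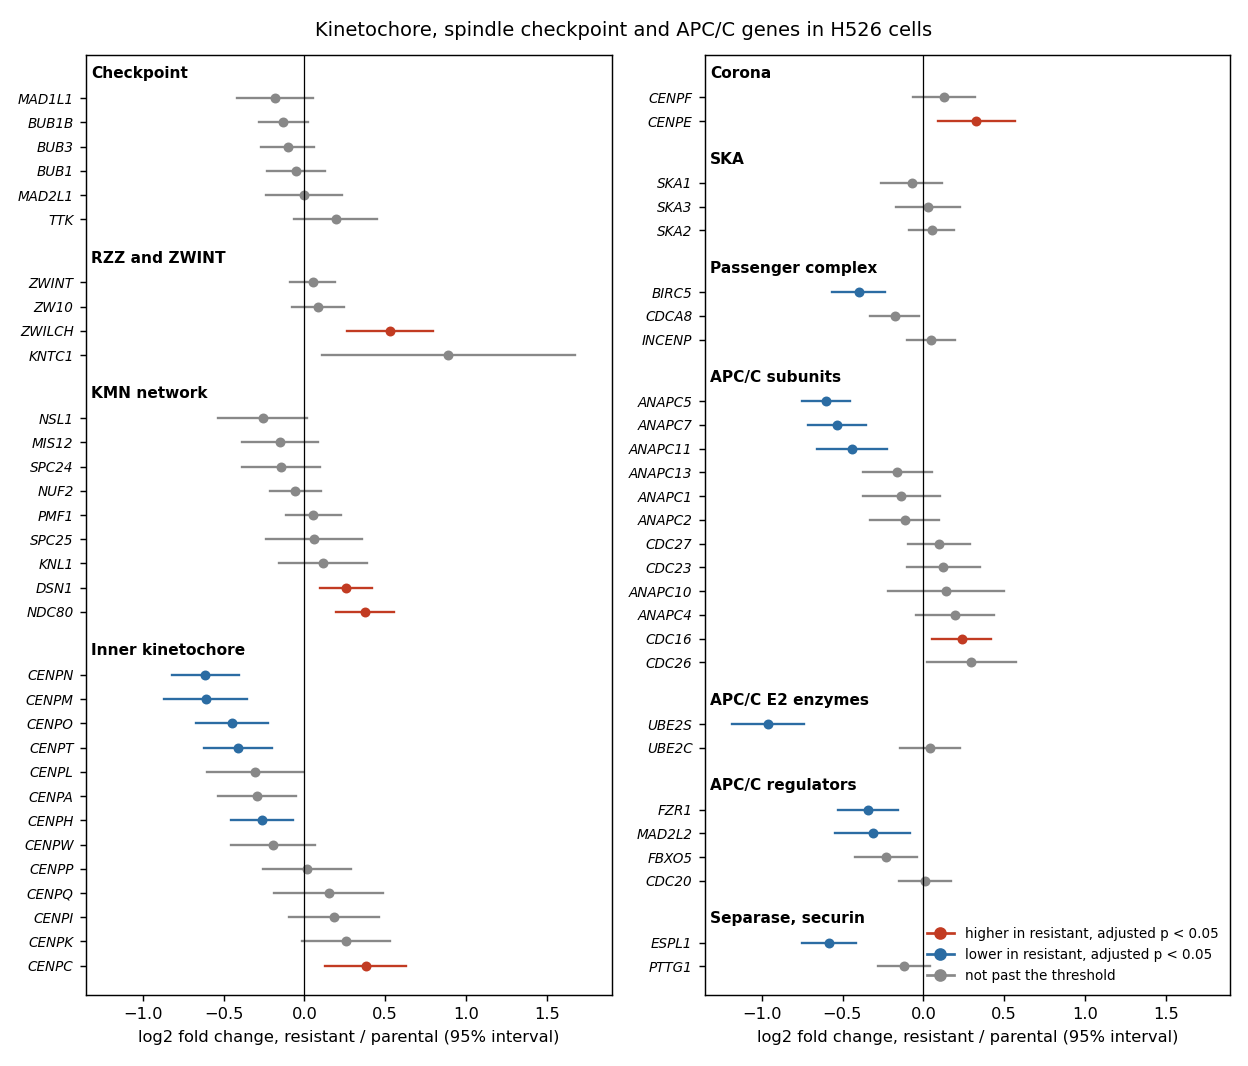
Log2 fold change (resistant over parental, x axis) of each of the 60 genes, grouped by role and ordered within a role, with the 95% interval of the limma fit (not adjusted for the number of genes) as a line. Red points are the 6 genes higher and blue points the 13 genes lower in the resistant line (adjusted p under 0.05), grey points the 41 others. UBE2S is farthest to the left, at -0.96, and KNTC1 has the widest interval, from 0.11 to 1.67.

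The kinases and MAD proteins that make the checkpoint signal were close to level between the groups. None of BUB1, BUB1B, BUB3, MAD1L1, MAD2L1 and TTK was differentially expressed, with log2 fold changes from -0.18 to 0.19, and their libraries overlapped in every case. BUB3, which carries BUB1 and BUBR1 to the kinetochore, had the largest value of the role, at 7491, 7142 and 7865 in parental and 7510, 6352 and 7100 in resistant libraries. The resistant values spanned the lowest parental value, so the groups overlapped. MAD2L1, the protein that binds CDC20 in the inhibitory complex, had a log2 fold change of 0.00 (-0.00348, 95% interval -0.24 to 0.23), and BUB1, a kinase that recruits the other checkpoint proteins, one of -0.05 (95% interval -0.23 to 0.13). TTK (MPS1), the kinase that starts the signal, had one of 0.19 (95% interval -0.06 to 0.45). Changes inside these intervals could not be told from none with 3 libraries a group.

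The RZZ complex (ROD, ZW10 and Zwilch) brings MAD1 and dynein to unattached kinetochores, and ZWINT links it to KNL1. ZWILCH was at 1489, 1041 and 1219 in parental and at 1925, 1709 and 1721 in resistant libraries. The groups did not overlap, and the log2 fold change was 0.53 (SE 0.12, limma adjusted p = 0.00642). Neighbouring genes were shifted by 0.33, and with that shift subtracted the value was 0.20 and the call was lost (limma adjusted p = 0.252). ZW10 and ZWINT were level, with log2 fold changes of 0.08 (95% interval -0.08 to 0.24) and 0.05 (95% interval -0.09 to 0.19). Within each library the ratio of ZWILCH to ZW10 was 0.503 to 0.657 in parental and 0.779 to 0.846 in resistant cells. A small part of ZWILCH exons (3.26%) overlaps RPL4 on the other strand, which had a log2 fold change of 0.42, and the use of strand in counting is not given in the sources used here.

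KNTC1, which encodes ROD, the largest protein of the RZZ complex (ENSG00000184445, chromosome 12, 122527246 to 122626396), had the widest spread of the 60. It was at 1795, 1922 and 1828 in parental libraries and at 5501, 1608 and 4553 in resistant libraries 7, 8 and 9. Libraries 7 and 9 were above every parental library and library 8 was below every one, so the resistant mean of 3887 ± 2030 (SD, n = 3) describes no single library. The log2 fold change of 0.89 (standard error 0.35) was not past the threshold (limma adjusted p = 0.0707). It was 1.44 without resistant library 8, 0.55 without library 7 and 0.69 without library 9. The fit without library 8 leaves out the resistant library that was below the parental ones, so it does not show a rise in all resistant libraries. The highest resistant library was 3.42 times the lowest, the second largest such ratio among 5685 genes with a mean of at least 1000, whose median was 1.11. Among the other 59 members the largest ratio was 1.46, for KNL1. In ZW10, ZWILCH and ZWINT the highest resistant library was at most 1.13 times the lowest.

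**Figure D2:**
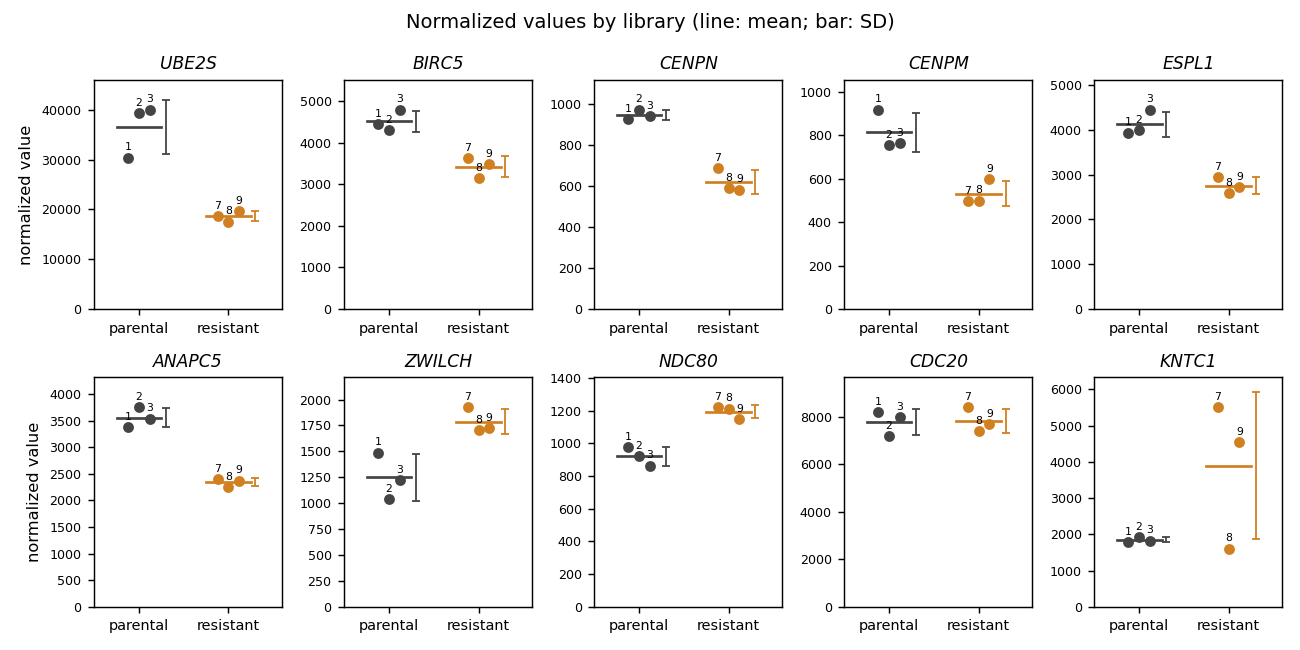
Normalized value (y axis, from 0) of 10 genes in each library, numbered, with parental libraries in grey and resistant libraries in orange. The horizontal line is the group mean and the bar beside it the SD of 3 libraries. In UBE2S, BIRC5, CENPN, CENPM, ESPL1 and ANAPC5 every resistant library is below every parental one, in ZWILCH and NDC80 above, in CDC20 the groups overlap, and in KNTC1 library 8 at 1608 is apart from libraries 7 and 9 at 5501 and 4553.

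The KMN network (KNL1, the MIS12 complex and the NDC80 complex) forms the microtubule-binding outer kinetochore. Of its 9 genes, 2 were higher and 0 lower in resistant cells (22.2%, against 37.7% of all genes tested). NDC80 (HEC1), the subunit that grips the microtubule, was at 980, 923 and 864 in parental and at 1221, 1213 and 1150 in resistant libraries. The groups did not overlap, with a log2 fold change of 0.37 (SE 0.08, limma adjusted p = 0.00502). The other subunits of its complex had log2 fold changes of -0.06 for NUF2, -0.15 for SPC24 and 0.06 for SPC25, none past the threshold. NDC80 and NUF2 pair as equal partners in the complex, and within each library the ratio of their values was 0.270 to 0.320 in parental and 0.391 to 0.403 in resistant cells. DSN1, the subunit of the MIS12 complex that Aurora B phosphorylates, was at 1318, 1396 and 1454 in parental and at 1598, 1687 and 1697 in resistant libraries, without overlap (log2 fold change 0.26, limma adjusted p = 0.0184). Its call was lost without resistant library 8 or 9 (adjusted p = 0.0585 and 0.0593 by limma). MIS12, NSL1, PMF1 and KNL1, the scaffold that BUB1 docks on, had log2 fold changes between -0.26 and 0.11. PMF1 shares 23.3% of its exon bases with the read-through gene PMF1-BGLAP, so its value is uncertain.

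The inner kinetochore, built by CENPA (the histone H3 variant of centromeres) and the constitutive centromere network, is the largest role, and 5 of its 13 genes were lower and 1 higher (46.2%, against 37.7% of all genes tested). CENPN, which reads the CENPA nucleosome, was at 926, 973 and 943 in parental and at 687, 591 and 582 in resistant libraries. CENPM, a subunit of the CENPH-CENPI-CENPK complex, was at 918, 757 and 766 in parental and at 499, 499.7 and 598 in resistant libraries. Both were lower in every resistant library, to 65.5% and 65.4% of the parental mean (log2 fold changes -0.61 and -0.61, adjusted p = 0.000634 and 0.00219 by limma). CENPO was at 1501, 1271 and 1332 against 1060, 1069 and 882, and CENPT, which recruits the NDC80 complex, at 718, 793 and 725 against 525, 589 and 565. Their log2 fold changes were -0.45 and -0.41 (adjusted p = 0.00603 and 0.00646 by limma), without overlap of the groups. CENPH was at 659.5, 650.1 and 663 against 538, 562 and 544, a log2 fold change of -0.26 (limma adjusted p = 0.0370), and its call was lost when any 1 of the 6 libraries was left out, with adjusted p from 0.0645 to 0.1001.

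CENPC, the protein that ties CENPA nucleosomes to the MIS12 complex, was the one gene of the inner kinetochore that was higher. It was at 667, 534 and 523 in parental and at 787, 740 and 704 in resistant libraries, a log2 fold change of 0.38 (limma adjusted p = 0.0237), and the call was lost without parental library 2 or 3 or resistant library 7 or 8 (adjusted p of up to 0.0916). CENPA itself was at 545, 512 and 505 in parental and at 433, 382 and 461 in resistant libraries. Its groups did not overlap, yet its log2 fold change of -0.29 was not past the threshold (limma adjusted p = 0.0561). CENPI, CENPK, CENPL, CENPP, CENPQ and CENPW were not past it either, with log2 fold changes between -0.31 and 0.25. Some of these genes share exon bases with genes on the other strand. CENPO shares 27.0% with ADCY3 and 4.64% with PTRHD1, whose log2 fold changes were -0.16 and -0.46. CENPN shares 4.23% with CMC2 (-0.31), and CENPT shares 6.71% with THAP11 and 2.93% with NUTF2 (-0.13 and -0.27). CENPP shares 39.9% with IPPK (-0.24). On the same strand, CENPA shares 7.08% with SLC35F6, which had a log2 fold change of -0.27 (limma adjusted p = 0.0794).

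Outside the core, CENPE, the kinesin that carries chromosomes to the spindle equator, was at 1600, 1304 and 1501 in parental and at 1879, 2062 and 1601 in resistant libraries. The groups were separated by less than a single unit at their nearest values (1600.1 and 1600.7), and the log2 fold change of 0.33 (limma adjusted p = 0.0362) lost its call without parental library 2 or 3 or resistant library 7 or 8 (adjusted p of up to 0.135). CENPF, a large protein of the outer corona, had a log2 fold change of 0.13 (95% interval -0.07 to 0.32). The 3 genes of the SKA complex, which tracks microtubule ends, had log2 fold changes from -0.07 to 0.05. SKA2, the largest of them by value, was at 3140, 3180 and 3198 in parental and at 3431, 3330 and 3105 in resistant libraries, which overlapped.

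The chromosomal passenger complex (INCENP, survivin and borealin with the kinase Aurora B) corrects faulty attachments. BIRC5, which encodes survivin, was at 4448, 4297 and 4790 in parental and at 3634, 3144 and 3489 in resistant libraries, all of them below the parental ones (log2 fold change -0.40, SE 0.07, limma adjusted p = 0.00203). AURKB, the kinase of the complex and not 1 of the 60, was at 1988, 1926 and 1986 in parental and at 1514, 1219 and 1480 in resistant libraries, with a log2 fold change of -0.49 (limma adjusted p = 0.00191). Survivin and Aurora B transcripts were thus both lower in resistant cells. INCENP, the scaffold, was level (log2 fold change 0.05, 95% interval -0.10 to 0.19), and CDCA8, which encodes borealin, had a log2 fold change of -0.18 (limma adjusted p = 0.0667). The ratio of BIRC5 to INCENP was 0.959 to 1.16 in parental and 0.733 to 0.848 in resistant libraries.

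UBE2S had the largest fall and the smallest adjusted p of the 60. It encodes the ubiquitin-conjugating enzyme (E2) that lengthens the chains the APC/C puts on its substrates, and lies on chromosome 19 from 55399745 to 55407788 on the minus strand (ENSG00000108106). It was at 30393, 39340 and 40031 in parental and at 18738, 17574 and 19650 in resistant libraries. Every resistant library was far below the lowest parental one, and the resistant mean was 50.98% of the parental mean (log2 fold change -0.96, SE 0.10, limma adjusted p = 5.95e-05). UBE2C, the E2 that places the first ubiquitin, was at 4463, 3609 and 3883 in parental and at 4292, 4104 and 3862 in resistant libraries, which overlapped (log2 fold change 0.04, 95% interval -0.15 to 0.23). The value of UBE2S was 6.81 to 10.9 times that of UBE2C in parental and 4.28 to 5.09 times in resistant libraries. Per kb of exons UBE2S was the highest of the 60 in both groups, at 13072 in parental and 6665 in resistant cells, followed by CDC20 at 3861 and 3889 and UBE2C at 3099 and 3177. The 2 named pseudogene copies of UBE2S summed to 0.0910% of its value in parental and 0.150% in resistant cells.

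Of 12 subunits of the APC/C, 3 were lower and 1 higher in resistant cells (33.3%, near the 37.7% of all genes tested). ANAPC5, a subunit of the platform, was at 3379, 3747 and 3535 in parental and at 2395, 2254 and 2373 in resistant libraries (log2 fold change -0.60, limma adjusted p = 8.87e-05). ANAPC7, of the arc of repeat proteins that binds coactivators, was at 2964, 2562 and 3048 against 2011, 2004 and 1889 (log2 fold change -0.53, limma adjusted p = 0.000556). ANAPC11, the RING subunit that binds the E2 enzymes, was at 2994, 3876 and 3567 against 2551, 2370 and 2736 (log2 fold change -0.44, limma adjusted p = 0.00553). In all 3 every resistant library was below every parental one. After the shift of neighbouring genes was subtracted, ANAPC5 and ANAPC7 were at -0.05 and 0.02 and ANAPC11 at -0.44. ANAPC11 shares 1.54% of its exon bases with ALYREF on the other strand, which had a log2 fold change of -0.77. CDC16, another repeat protein, was at 1331, 1164 and 1211 in parental and at 1390, 1544 and 1434 in resistant libraries (log2 fold change 0.24, limma adjusted p = 0.0430), and lost its call without any 1 library other than parental library 1 (adjusted p of up to 0.144). ANAPC1, ANAPC2, ANAPC4, ANAPC10, ANAPC13, CDC23, CDC26 and CDC27 had log2 fold changes between -0.16 and 0.30, none past the threshold. ANAPC13 shares 19.3% of its exon bases with CEP63 on the other strand, which had a log2 fold change of 0.42.

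CDC20, the coactivator of the APC/C in metaphase and the protein the checkpoint blocks, was level: 8173, 7167 and 7965 in parental and 8385, 7398 and 7689 in resistant libraries, a log2 fold change of 0.01 (95% interval -0.15 to 0.17). FZR1 (CDH1), the coactivator of late mitosis and G1, was at 1692, 1661 and 1819 in parental and at 1370, 1472 and 1246 in resistant libraries, without overlap (log2 fold change -0.34, limma adjusted p = 0.00893). FZR1 shares 1.14% of its exon bases with MFSD12 on the other strand, which had a log2 fold change of -0.58. The ratio of CDC20 to FZR1 was 4.32 to 4.83 in parental and 5.03 to 6.17 in resistant libraries. MAD2L2, which can bind CDH1 and also serves DNA repair, was at 1091, 1357 and 1319 against 1039, 911 and 1072 (log2 fold change -0.31, limma adjusted p = 0.0379), and its call was lost without parental library 2 or 3 or resistant library 7 or 8 (adjusted p of up to 0.134). MAD2L2 shares 16.1% of its exon bases with FBXO6 on the other strand, which had a log2 fold change of 0.76. FBXO5 (EMI1), the inhibitor of the APC/C in interphase, had a log2 fold change of -0.23 (limma adjusted p = 0.0576).

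ESPL1, which encodes separase, the protease that cuts cohesin at anaphase, was at 3940, 3988 and 4451 in parental and at 2951, 2594 and 2728 in resistant libraries. All resistant libraries were below all parental ones, with a mean of 66.8% of the parental mean (log2 fold change -0.58, SE 0.08, limma adjusted p = 0.000235). PTTG1, which encodes securin, the inhibitor of separase and a substrate of the APC/C, had a log2 fold change of -0.12 (95% interval -0.28 to 0.04).

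**Figure D3:**
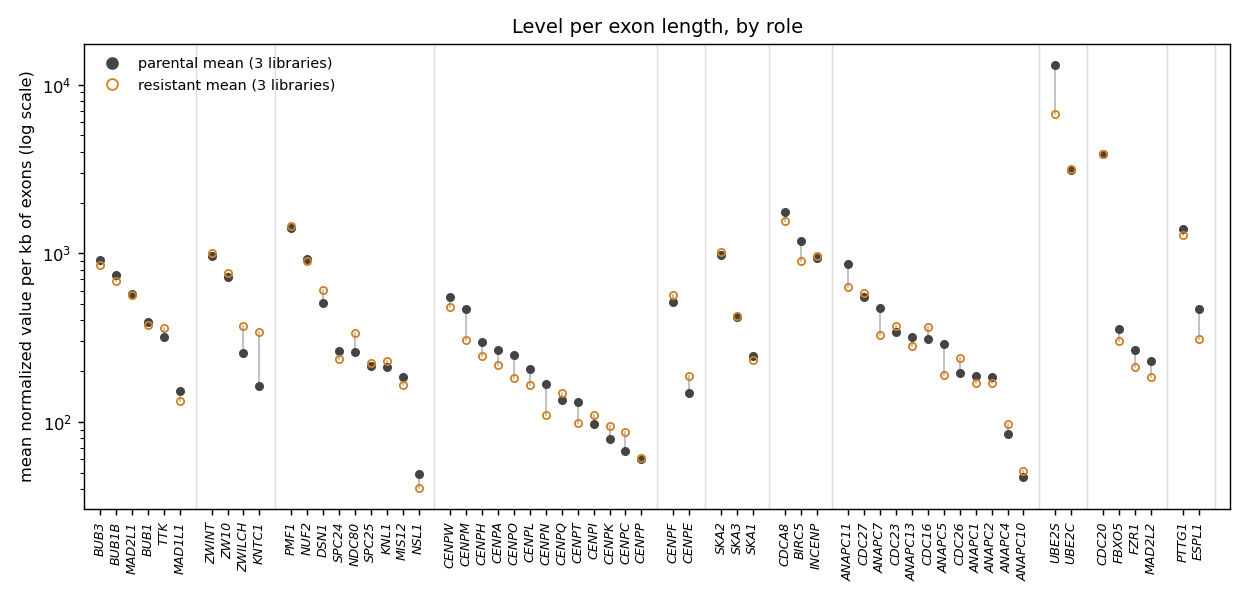
Mean normalized value per kb of exons (y axis, log scale) of the 60 genes in parental (filled grey) and resistant cells (open orange), ordered by parental level within each role, with vertical lines between roles. UBE2S at 13072 and 6665 and CDC20 at 3861 and 3889 stand highest, and ANAPC10 at 46.9 and 51.2 and NSL1 at 48.9 and 40.7 lowest.

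Per kb of exons, levels within a complex ranged widely, and exon length was counted over every annotated transcript, so genes with long rare exons are understated. The APC/C subunits ran from 46.9 for ANAPC10 to 864 for ANAPC11 in parental cells and from 51.2 to 634 in resistant cells. The inner kinetochore ran from 60.3 for CENPP to 550 for CENPW (550.5) in parental cells and from 61.2 to 483 in resistant cells.

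Several of these changes were shared with the genes nearby on the chromosome, and the cause was not tested. The shift of the 50 nearest tested genes was subtracted from each library as an alternative (local median centring), after which 30.9% of all genes tested were differentially expressed, 14.5% higher and 16.5% lower. Under it 17 members were differentially expressed, 4 higher and 13 lower, and 11 of them were among the 19 before centring. ESPL1, ANAPC7 and ANAPC5 lie on chromosome 12, at 53268299, 110372900 and 121308245, where the neighbours were shifted by -0.57, -0.56 and -0.55. The log2 fold changes of these 3 genes became -0.02, 0.02 and -0.05 after centring, with adjusted p of 0.901, 0.852 and 0.604 by limma. They thus fell as much as the genes around them did. KNTC1, also on chromosome 12, had neighbours shifted by -0.57, and its log2 fold change became 1.47 (limma adjusted p = 0.00897).

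UBE2S had neighbours shifted by -0.38 and remained lower after centring, with a log2 fold change of -0.58 (limma adjusted p = 0.00128). The value of ZWILCH, on chromosome 15, moved from 0.53 to 0.20 with neighbours shifted by 0.33 (adjusted p = 0.252 by limma after centring), that of CDC16 from 0.24 to 0.03 (adjusted p = 0.824), that of FZR1 from -0.34 to -0.16 (adjusted p = 0.204), that of CENPO from -0.45 to -0.31 (adjusted p = 0.0555) and that of CENPE from 0.33 to 0.29 (adjusted p = 0.0692). BIRC5, CENPN, CENPM, CENPT, CENPH, ANAPC11, MAD2L2, NDC80, DSN1 and CENPC kept their calls. BUB1B, NSL1, CDCA8, ANAPC13 and FBXO5 passed the threshold as lower, with log2 fold changes of -0.23, -0.39, -0.28, -0.29 and -0.32. The number of copies of these genes was not measured here.

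**Figure D4:**
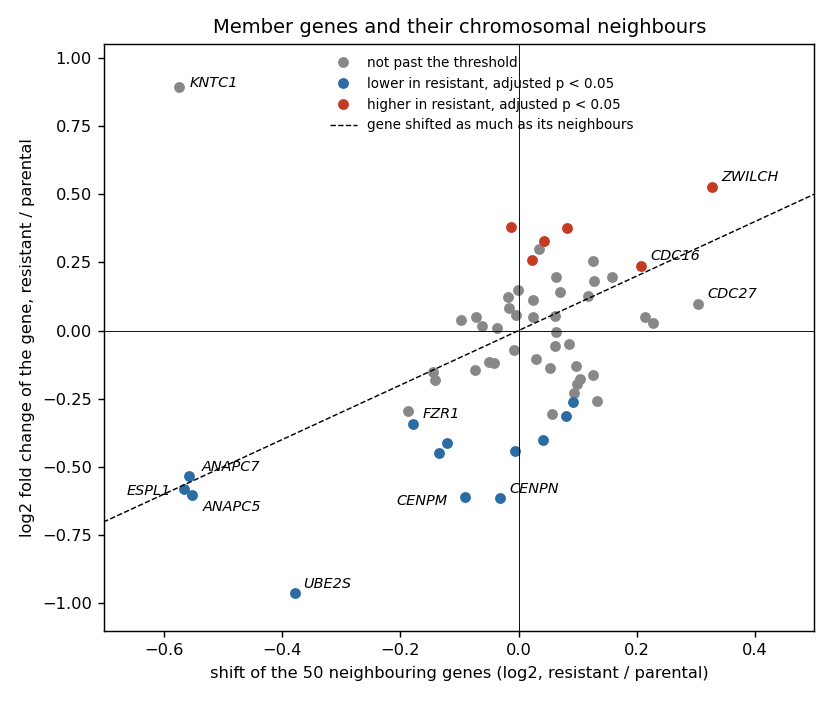
Log2 fold change of each of the 60 genes (y axis) against the shift of its 50 neighbouring tested genes (x axis), both as log2 of resistant over parental. On the dashed line a gene moves as much as its neighbours: ESPL1, ANAPC7 and ANAPC5 lie near it with log2 fold changes from -0.53 to -0.60, UBE2S lies below it, and KNTC1 far above it with neighbours at -0.57.

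Of 51 other genes of the kinetochore, checkpoint, APC/C and cohesin, 50 were tested, and 15 of them were differentially expressed, 3 higher and 12 lower, a smaller share than the 37.7% of all genes tested. KIF2B, a kinesin, was listed at 0 in every library. BOD1, a kinetochore protein that restrains the phosphatase PP2A, had the smallest p. Its mean was 41.4% of the parental mean (log2 fold change -1.27, limma adjusted p = 8.02e-06), and its log2 fold change was -0.94 after local centring. NUP107, a nucleoporin also found at kinetochores, had a log2 fold change of -0.64 and lies on chromosome 12, with neighbours shifted by -0.51 (-0.13 after centring, limma adjusted p = 0.189). CENPB, which binds a sequence of centromeric repeats, had one of -0.44. MIS18A, which helps to load CENPA and lies on chromosome 21, was at 707 ± 19.6 in parental and 1396 ± 64.2 in resistant cells (SD, n = 3), higher by 0.98 on the log2 scale, while its neighbours were shifted by 0.95. After centring MIS18A was at 0.03. The cohesin subunit STAG2 had a log2 fold change of 0.28.

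Of 18 substrates of the APC/C, 2 were higher and 5 lower in resistant cells (38.9%, near the background). SKP2, an F-box protein, CDC25A, a phosphatase that activates CDKs, and NUSAP1, a spindle protein, were lower, with log2 fold changes of -0.38, -0.30 and -0.27. The spindle proteins DLGAP5 and HMMR were higher, by 0.37 and 0.43. DLGAP5 had neighbours shifted by 0.37 and was at -0.00609 after local centring (limma adjusted p = 0.961). HMMR was at 0.50 after it (limma adjusted p = 0.0107). PLK1, the target of the drug and a substrate too, was at 5556, 4798 and 5578 in parental and at 5819, 5288 and 5420 in resistant libraries, a log2 fold change of 0.06 (95% interval -0.11 to 0.22), with overlapping groups. The summed value of 14 proliferation genes was 135271 to 143462 in parental and 125279 to 135305 in resistant libraries, with MKI67 higher (log2 fold change 0.47) and MCM2, MCM7 and RRM2 lower (-0.21, -0.71 and -0.23). MCM7 had neighbours shifted by -0.51 and lost its call after local centring (-0.20, limma adjusted p = 0.0805). MKI67, MCM2 and RRM2 kept theirs. The part of proliferation in the values of the 60 genes was not tested.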

How the data were processed

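RNA of 3 parental and 3 onvansertib-resistant H526 libraries was measured by paired-end RNA-seq. The authors trimmed reads with Trimmomatic 0.38, aligned and quantified them with RSEM 1.3.1 on GRCh38 (Gencode v43), and then normalized gene counts with DESeq2, version 1.30.0 per the labels. What the authors deposited is this normalized signal of each gene in each library. Low values came out as whole reads (within 0.02 reads) in 33.4% to 59.2% of cases, too few to get counts back, so a log-scale test replaced the count test of the study. Depth was the total divided by that value. Of 62757 rows, 47 second copies of pseudoautosomal genes were left out. Symbols, positions and exon lengths came from Gencode v44 (GRCh38) for 62639 of 62710 rows.

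Values were tested as log2(value + 1) with limma 3.58.1 in R 4.3.3 (lmFit, eBayes with trend, 2 groups and no covariate, genes with a mean of at least 10, Benjamini-Hochberg adjustment over all genes tested), and single genes with exact permutation tests. Local median centring subtracted from each library the median deviation from the parental mean of the 50 other genes nearest by position. The main limma fit was tested on simulated data with known fold changes, and local median centring was not. Figures and tables used Python 3.11.15, pandas 2.3.3 and matplotlib 3.10.9. The members, lists and tests were chosen with earlier results of these data known. Values by library are given for differentially expressed members, for PLK1 and AURKB, and for the member of the largest value in other roles, and the 3 smallest p in each direction name genes of the other lists, some of which are not reported here. KNTC1, UBE2C, CENPA and CDC20 were added after their values were seen. Alternatives were local centring, leaving out each library, quantile normalization, TMM scaling, limma without the trend, a pseudocount of 0.1 or 10, and a filter at 50 or none.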

Additional observations from a re-analysis of the deposited data

How the results depend on the processing

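The 14 alternatives were applied to every value of the 60 genes. Of the 19 differentially expressed members, 7 (ANAPC11, BIRC5, CENPM, CENPN, CENPT, NDC80 and UBE2S) kept direction and call under all 14. The 6 higher members became 3 to 7 and the 19 members in all 14 to 19 when 1 library was left out, with 3 higher without parental library 2 or 3 or resistant library 7 or 8. The lower members became 11 to 12 and the other pathway genes 11 to 15. The 7 APC/C substrates became 3 in limma without the trend and 4 to 8 with 1 library left out, with 4 without parental library 3. The cause was not tested. Without the trend, 16 members and 10 other pathway genes passed.

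Directions turned for ANAPC7 and for 11 members that were not differentially expressed. MAD2L1 was at 0.0405 after quantile normalization. After local centring ZWINT was at -0.16, PMF1 at -0.01 (-0.00713), SKA3 at -0.20, ANAPC7 at 0.0225 and CDC27 at -0.21. With 1 library left out, log2 fold changes ran from -0.11 to 0.0289 for BUB1, from -0.0763 to 0.10 for MAD2L1, from -0.0285 to 0.17 for SPC25, from -0.0145 to 0.26 for KNL1, from -0.00396 to 0.11 for PMF1, from -0.0899 to 0.10 for CENPP, from -0.0374 to 0.11 for SKA3, from -0.0281 to 0.13 for UBE2C and from -0.0464 to 0.05003 for CDC20. CENPK passed the threshold without parental library 1 (0.36), CENPL without resistant library 7 (-0.44), CDC26 without the trend (0.30) and KNTC1 without resistant library 8. No paired analysis was possible because the libraries are numbered 1 to 3 and 7 to 9, so the groups share no number, and which harvest of one line goes with which of the other is not given in the sources used here.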
